A study of Mus musculus with 12 samples.

Results

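The difference between CUG960 +dox mice, which express expanded CUG repeat RNA in the heart, and control mice was measured in ventricles and compared with the same difference in the atria of those animals. The quantity described is the interaction of chamber and genotype: the log2 change of a gene in CUG960 +dox mice against MHCrtTA +dox controls in ventricles, less the same change in atria. All 12 libraries of the series entered it, and 18327 of the 51826 entries of the deposited gene table had enough counts to be tested. A positive interaction means that the CUG960 change was the higher of the 2 in ventricles, and a negative one that it was the lower.

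The CUG960 +dox mice were homozygous for TREDT960I, a tetracycline-responsive transgene whose RNA holds 960 CUG repeats within a segment of human DMPK, and also carried MHCrtTA, which expresses the reverse tetracycline transactivator from a cardiomyocyte-specific myosin heavy chain promoter. The control mice carried MHCrtTA alone. Both groups were hemizygous for MHCrtTA, of the FvB strain, female, 10 weeks old and on doxycycline from postnatal day 1. The genotypes came from different crosses, the controls from a cross to wild type FVB mice and the CUG960 mice from TREDT960I homozygotes, so that the effect of the transgene cannot be told apart from that of litter or line. Mice V119, V120 and V123 carried the repeat transgene, and V327, V333 and V334 did not. Values are given in the order V327, V333, V334 for controls and V119, V120, V123 for CUG960 +dox mice. Each mouse gave 1 library from atria and 1 from ventricles, and the mouse was therefore a block in the test.

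As background, atrial and ventricular myocytes keep separate gene programs in adult life. Atrial cells hold natriuretic peptide, an atrial set of myosin light chains and the ligand BMP10, and ventricular cells hold their own light chains, a strong fast transient outward potassium current and more mitochondria. Expanded CUG RNA binds muscleblind-like proteins and thereby alters splicing and transcript levels, and conduction defects and arrhythmias of both chambers are known in the human disease. A gene can differ between the chambers in its CUG960 change in 3 ways: the normal difference between ventricles and atria (the chamber contrast) can shrink, it can grow, or it can change sign.

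The interaction passed the threshold, a Benjamini-Hochberg adjusted p under 0.05 in edgeR's quasi-likelihood test, for 1.82% of the genes tested. The CUG960 change was higher in ventricles for 167 genes (0.911% of genes tested) and lower for another 167 (0.911%). The absolute interaction of the called genes had a median of 0.949 on the log2 scale. Before adjustment, 2374 genes had p under 0.05. The count depended on which mouse was left out: it lay between 83 (without V120) and 243 (without V334) when a mouse was left out, with 108 without V327, 129 without V333, 138 without V119 and 182 without V123. In no such fit did any of the called genes turn its direction. For each gene and mouse, the ventricular level less the atrial level was also computed on log2(CPM + 1), where CPM is the count scaled to library size by TMM factors. The 3 CUG960 +dox mice and the 3 controls did not overlap in this difference for 328 of the called genes, which is 98.2% of them, against 20.6% of all genes tested. They overlapped for the other 6, among them Tnni1 and Wif1, which are named below. Since the same libraries gave both measures, the 328 genes are a description of the calls and not a second test. For a single gene, the smallest p that an exact permutation of the 6 mice allows is 0.1.

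Depth moved with genotype in opposite directions in the chambers. In atria the deposited counts ranged from 136770774 to 149950077 in controls, and from 116127966 to 134863462 in CUG960 +dox mice. In ventricles the totals of controls (129140369 to 133480610) lay below those of CUG960 +dox mice (140987828 to 160676189). When every library was thinned to the total of the smallest, 341 genes were called, of which 315 were among those called at full depth. Mitochondrially encoded transcripts made up 10.9% to 12.2% of each atrial library. Of the ventricular libraries they made up 19.6% to 20.5% in controls, and 15.3% to 18.4% with the repeat transgene. With these transcripts removed before scaling, 332 of the called genes were called again.

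The chambers were checked with light chain, sarcolipin and homeobox genes. Myl2, the ventricular regulatory light chain, had between 8504 and 10524 CPM in ventricles and between 8.82 and 33.5 CPM in atria, where V327 held the 33.5 CPM. Irx4, a ventricular homeobox factor, had at most 0.0655 CPM in atria and between 22.7 and 33.0 CPM in ventricles. Myl7, the atrial regulatory light chain, had between 2521 and 3309 CPM in atria. Its level in ventricles varied by mouse: 8.02 CPM in V327, 4.98 in V333, 19.3 in V334, 0.192 in V119, 0.304 in V120 and 55.9 in V123. The myosin light chain Myl4 and sarcolipin, Sln, had the same order of mice in ventricles at the top, with V123 highest and V334 next. In V123 the ventricular level was 2.22% of the atrial level for Myl7, 2.03% for Myl4 and 1.45% for Sln. In V119 it was 0.0058%, 0.0803% and 0.0162%. Every library therefore matched its labelled chamber, but the share of atrial transcripts in the ventricle libraries differed between mice of the same genotype, and its part in the results was not tested.

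**Figure D1:**
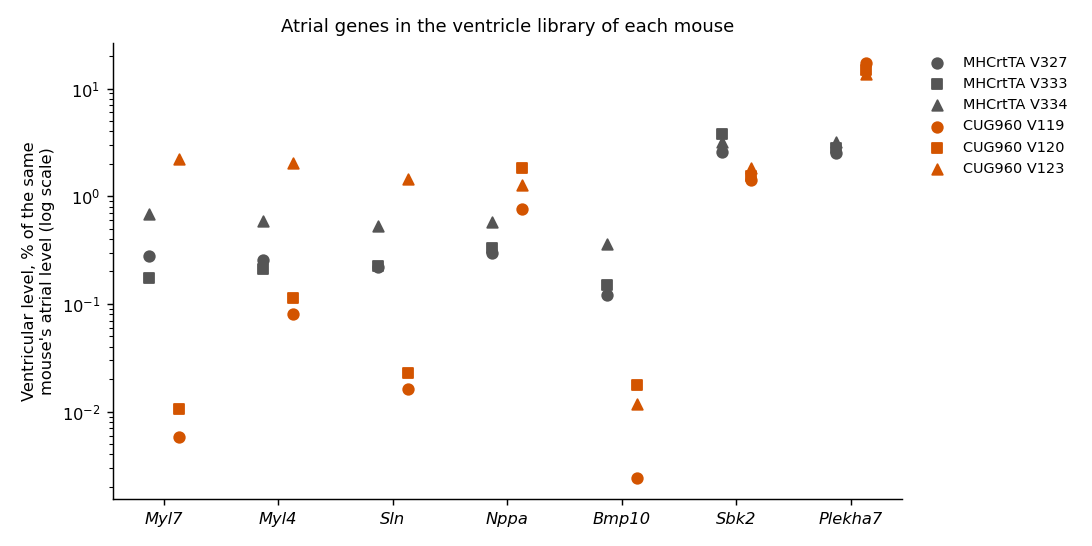
Level of 7 atrial genes in the ventricle library of each mouse, as a percent of the level in the atria of that mouse (log scale), with controls in grey and CUG960 +dox mice in orange and 1 marker per mouse. For Myl7, Myl4 and Sln the CUG960 mouse V123 lies above and V119 and V120 lie below the controls, whereas for Bmp10 all 3 CUG960 mice lie below the controls and for Plekha7 all 3 lie above.

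Among the called genes, the chamber contrast shrank in CUG960 +dox mice for 130 (38.9%), grew for 116 (34.7%) and changed sign for 88 (26.3%). Over all genes tested the same classes held 47.5%, 39.1% and 13.5%. The class follows from the fitted contrasts, and a sign change can come from a contrast near 0: in 35 of the 88 genes that changed sign, the contrast passed the threshold in both genotypes. In controls, 56.0% of genes tested differed between the chambers at the threshold. The contrast that shrank was on the atrial side for 71 genes and on the ventricular side for 59. The contrast that grew was on the atrial side for 64 and on the ventricular side for 52. The median absolute interaction was 0.99 where the contrast shrank, 1.02 where it grew and 0.81 where it changed sign.

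**Figure D2:**
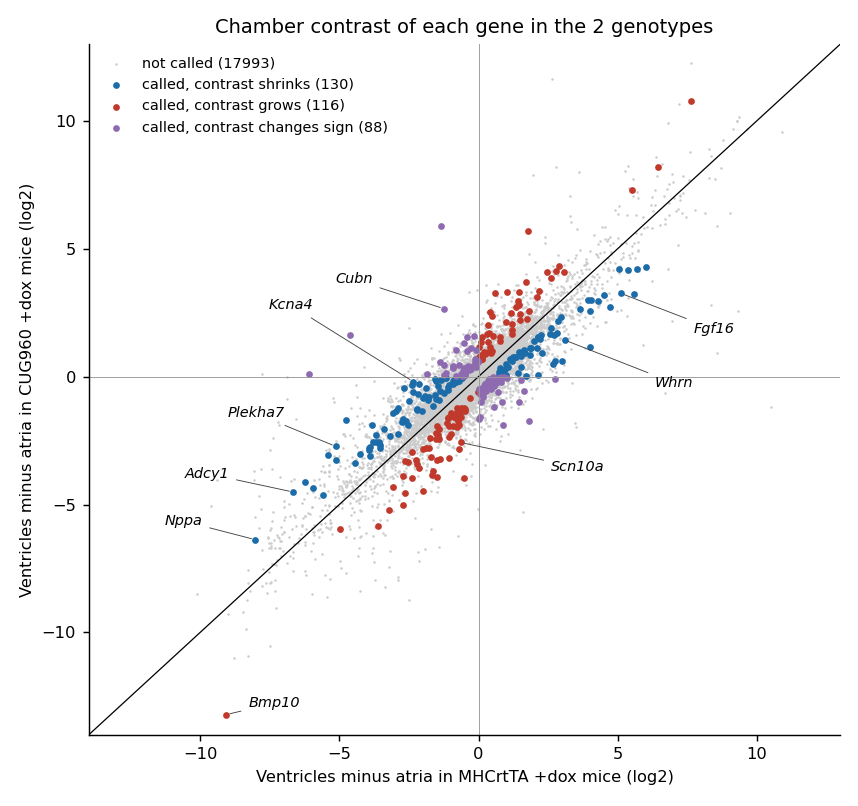
Chamber contrast (ventricles minus atria, log2) of each gene tested in controls (x axis) and CUG960 +dox mice (y axis), with genes not called in grey and called genes coloured by class, and with the line of equal contrasts. The 130 genes whose contrast shrank lie between the line and the x axis, the 116 whose contrast grew lie beyond the line, and the 88 that changed sign lie in the upper left and lower right.

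The genotypes were also compared within each chamber, over all 12 libraries in a single fit of the 4 group means. In atria 2450 genes (13.4% of those tested) and in ventricles 2477 genes (13.5%) changed in CUG960 +dox mice. With each chamber fitted on its own, 2573 genes changed in atria and 1680 in ventricles. The following counts are from the single fit. Of the genes with a called interaction, 112 passed in atria and not in ventricles, 121 in ventricles and not in atria, 41 in both in the same direction, 36 in both in opposite directions, and 24 in neither. The 112 atrial genes were 67 upregulated and 45 downregulated, and the 121 ventricular genes were 69 upregulated and 52 downregulated. Of the 36 with opposite directions, 22 rose in ventricles and fell in atria, and 14 fell in ventricles and rose in atria.

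**Figure D3:**
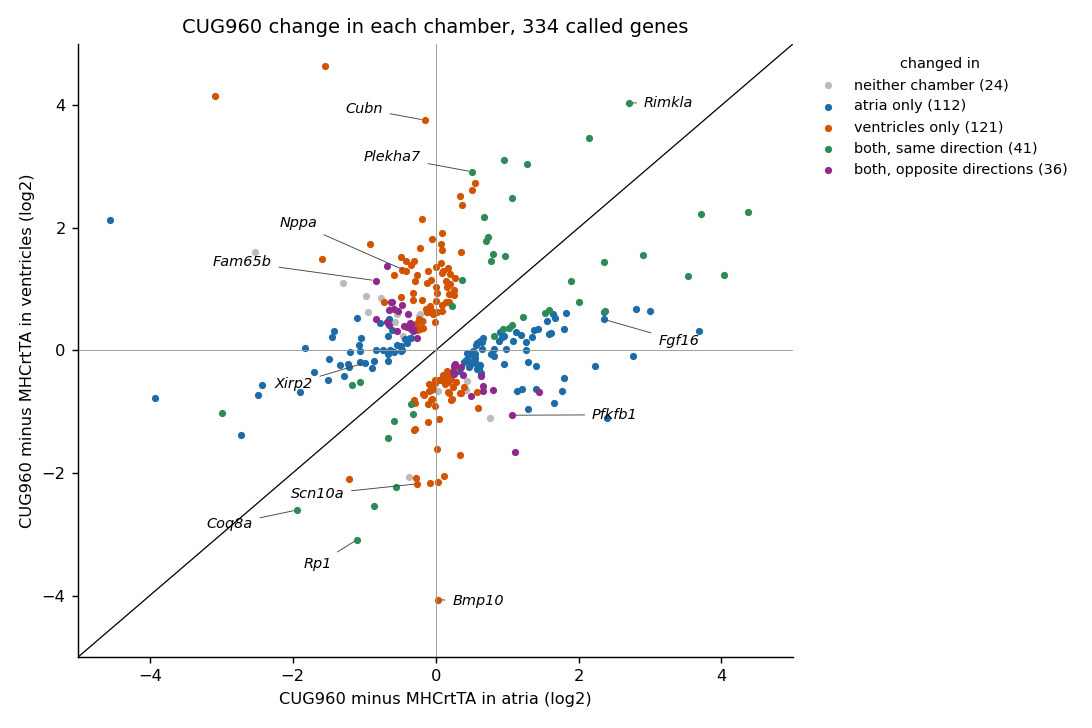
Change of each called gene in CUG960 +dox mice against controls (log2) in atria (x axis) and ventricles (y axis), coloured by the chamber in which the change passed the threshold. Points on the line would have equal changes, and the 36 genes with opposite changes lie in the upper left and lower right.

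The gene with the smallest p-value was Plekha7, an adherens junction protein of the cell border (GRCm38 chromosome 7, 116123485 to 116308376, minus strand). In atria it had 94.6, 113 and 102 CPM in controls and 146, 143 and 152 CPM in CUG960 +dox mice. In ventricles it had 2.39, 3.17 and 3.30 CPM in controls and 25.0, 21.4 and 20.5 CPM in CUG960 +dox mice, and the groups did not overlap in either chamber. It rose by 0.51 ± 0.11 (SE, log2) in atria and by 2.91 ± 0.12 in ventricles. The interaction was 2.41 ± 0.13 (SE, adjusted p = 0.000115), so that the chamber contrast shrank from -5.13 to -2.73. The ventricular level was between 2.53% and 3.22% of the atrial one in controls, and 13.5% to 17.1% in CUG960 +dox mice.

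The gene lists described from here on share members, so a called gene can count in several of them. The list of gap junction and intercalated disc genes had 33 members tested, of which 4 were called higher in ventricles and 1 lower, 15.2% of the list against 1.82% of all genes tested. Beside Plekha7, these were the connexins Gja1 and Gja5, the disc protein Xirp1 and the Popeye protein Popdc3. Gja1, the main connexin of working myocytes, lay in controls between 248 and 263 CPM in atria and between 242 and 255 CPM in ventricles, without a chamber contrast (-0.03). In CUG960 +dox mice it had 198, 213 and 205 CPM in atria and 344, 306 and 287 CPM in ventricles. It thus fell in atria (-0.31 ± 0.07, adjusted p = 0.011) and rose in ventricles (0.32 ± 0.07, adjusted p = 0.0086), with an interaction of 0.63 ± 0.11 (adjusted p = 0.026), and the call was lost in 3 of the 6 fits without 1 mouse. Gja5, the connexin of atrial myocytes and of the conduction system, fell in atria from 36, 43.8 and 42.6 CPM to 15.8, 12 and 15.2 CPM. In ventricles it had 5.51, 5.62 and 6.88 CPM in controls and 5.75, 4.01 and 3.05 CPM in CUG960 +dox mice, and these ranges overlapped. Its interaction of 0.99 ± 0.21 was near the threshold (adjusted p = 0.0479) and was lost in 5 of the 6 fits without 1 mouse. Popdc3, a membrane protein that binds cyclic AMP, rose in atria from 9.73, 7.86 and 10.0 CPM to 19.9, 27.9 and 22.5 CPM, and had between 25.8 and 32.4 CPM in all 6 ventricle libraries (interaction -1.13 ± 0.13, adjusted p = 0.00369).

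Of 85 potassium, HCN and chloride channel genes tested, 1 was called higher in ventricles and 4 lower, 5.88% of the list against 1.82% of all genes tested, and the median interaction of the list was 0.009, against 0.002 for all genes tested. Kcna4, a pore subunit of the slow transient outward current, was an atrial gene in controls, at 5.77, 6.14 and 6.41 CPM in atria and 0.904, 1.70 and 1.09 CPM in ventricles. In CUG960 +dox mice it had 8.88, 9.55 and 7.53 CPM in atria and 8.57, 7.50 and 6.6 CPM in ventricles. Its contrast went from -2.35 to -0.20, with an interaction of 2.15 ± 0.21 (adjusted p = 0.00202). The fast transient outward current is carried by Kcnd2 with its partner Kcnip2, and both moved the other way: each rose in atria (0.55 ± 0.09 and 0.45 ± 0.13) and had a ventricular change that missed the threshold (-0.07 ± 0.09 and -0.15 ± 0.13). Their interactions were -0.62 ± 0.10 and -0.61 ± 0.10, lost in 4 and 5 of the 6 fits without 1 mouse. Kcnv2, a silent subunit that modifies delayed rectifier channels, lost its ventricular level. It had 18.5, 21.4 and 22.9 CPM in ventricles of controls and 3.70, 5.26 and 4.40 CPM in those of CUG960 +dox mice, while atria had 6.51, 7.43 and 7.66 CPM and 3.72, 5.68 and 5.26 CPM (interaction -1.66 ± 0.12, adjusted p = 0.000629). Kcna1, a delayed rectifier subunit that is also a marker of nerve and Schwann cells, rose in atria from between 1.3 and 1.83 CPM to between 3.48 and 6.12 CPM and had between 0.297 and 0.759 CPM in ventricles (interaction -2.44 ± 0.31, adjusted p = 0.00665). The summed level of the 11 nerve and Schwann cell markers tested was between 20.5 and 26.5 CPM in atria of controls and 19.7 to 23.7 CPM in those of CUG960 +dox mice, and 17.6 to 19.3 CPM and 8.99 to 13 CPM in ventricles, with Cdh19 the most abundant in 3 of the 4 groups. Kcna1 is itself among these 11 markers, so the sums contain its rise in atria. In atria 1 of the 11 rose and 1 fell at the threshold, with a median change of -0.136, and in ventricles the median was -0.671. The part of nerve and Schwann cells in the Kcna1 result was not tested.

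The 32 voltage-gated sodium and calcium channel genes held 2 calls, both lower in ventricles (6.25% against 1.82% of all genes tested), and in each of the 6 fits without 1 mouse the list again held 2. Scn10a, a tetrodotoxin-resistant sodium channel, had 4.86, 5.10 and 4.71 CPM in atria of controls and 4.66, 4.11 and 3.49 CPM in those of CUG960 +dox mice. In ventricles it fell from 3.25, 3.51 and 2.66 CPM to 0.789, 0.790 and 0.496 CPM (-2.18 ± 0.19), and its atrial contrast grew from -0.65 to -2.58 (interaction -1.93 ± 0.19, adjusted p = 0.00202). Scn4b, a sodium channel beta subunit, rose in atria from 6.42, 3.53 and 4.80 CPM to 12.1, 11.5 and 20.5 CPM, and its ventricular change of 0.26 ± 0.22 missed the threshold (interaction -1.32 ± 0.19, adjusted p = 0.0133). Without the mouse as a block this call was lost (adjusted p = 0.0703). Hcn4, the main pacemaker channel, rose in atria from between 0.644 and 2.16 CPM to between 8.11 and 9.71 CPM, and in ventricles had 4.60, 6.80 and 8.26 CPM in controls and 21.7, 9.18 and 11.6 CPM in CUG960 +dox mice. Its interaction, -1.59 ± 0.55, did not pass the threshold (adjusted p = 0.243). It ranged from -2.19 without V327 to -0.954 without V334, and it was called in 1 alternative, the fit with no filter on low counts (adjusted p = 0.00166). In 60 calcium handling genes, of which 3.33% were called against 1.82% of all genes tested, Ryr3, a minor ryanodine receptor, was called higher (1.05 ± 0.19) and Tmem38b, an intracellular cation channel of the reticulum, lower (-0.47 ± 0.10). Without 1 mouse the call of Ryr3 was lost in 4 of 6 fits and that of Tmem38b in all 6.

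**Figure D4:**
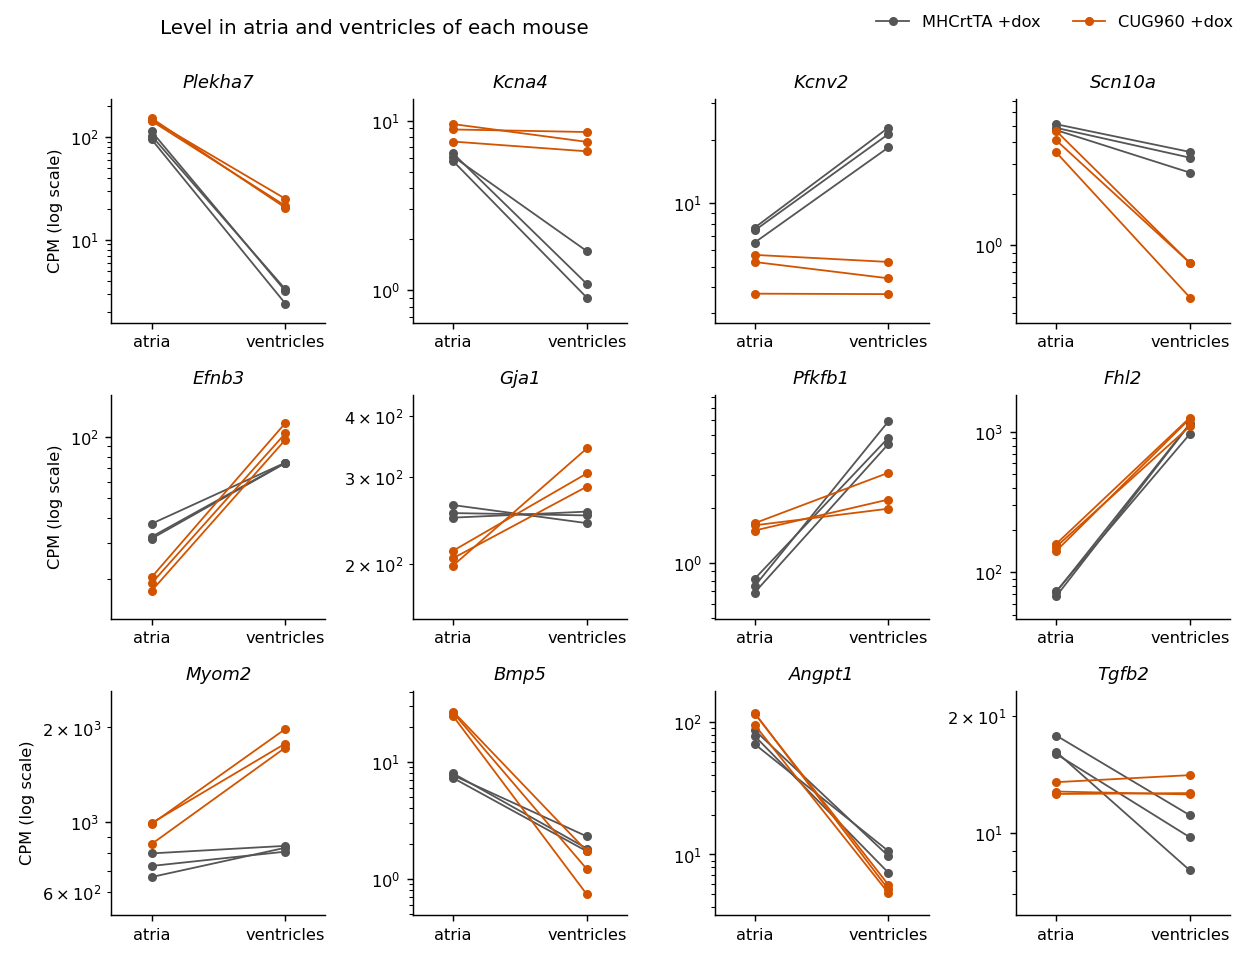
Level of 12 genes in atria and ventricles of each mouse in CPM (log scale), with a line for each control mouse in grey and each CUG960 +dox mouse in orange. Lines of the genotypes differ in slope for each gene. They come close on the ventricular side for Fhl2, part there for Plekha7, Kcna4, Kcnv2, Scn10a and Myom2, and cross for Efnb3, Gja1, Pfkfb1, Angpt1 and Tgfb2. For Bmp5 the lines of V120 and V123 cross those of all controls, and that of V119 ends level with V327.

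Of 45 natriuretic peptide, BMP and other secreted factor genes, 9 were called higher in ventricles and 4 lower, 28.9% of the list against 1.82% of all genes tested. Nppa encodes atrial natriuretic peptide. It had 16473, 16582 and 14628 CPM in atria of controls and 11401, 12381 and 11833 CPM in those of CUG960 +dox mice, a change of -0.42 ± 0.27 that missed the threshold although the ranges did not overlap. In ventricles it rose from 48.6, 54.4 and 84.8 CPM to 86.6, 224 and 151 CPM (1.3 ± 0.27, adjusted p = 0.008). The interaction was 1.66 ± 0.33 (adjusted p = 0.0388). The call was lost in 4 of the 6 fits without 1 mouse and in DESeq2 (1.65, adjusted p = 0.819). Npr3, the clearance receptor of natriuretic peptides and an endocardial gene, rose in ventricles from 24, 25.6 and 29.3 CPM to 41.5, 41.4 and 43.0 CPM (0.68 ± 0.11) and lay between 272 and 366 CPM in atria (interaction 0.75 ± 0.14).

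The list held from 1 (without V120) to 9 genes called higher in the fits without 1 mouse, and 4 or 5 called lower. Npr3 was lost in 5 of these 6 fits.

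The BMP ligands parted. Bmp10, a ligand made by atrial myocytes (GRCm38 chromosome 6, 87428994 to 87437677), had 2016, 1612 and 1036 CPM in atria of controls and 1422, 1564 and 1770 CPM in those of CUG960 +dox mice, and these overlapped. In ventricles it had 2.43, 2.39 and 3.75 CPM in controls. In those of CUG960 +dox mice it had 0.0343, 0.275 and 0.208 CPM, from 5, 38 and 26 counts. Its ventricular change of -4.07 ± 0.42 and its interaction of -4.15 ± 0.53 (adjusted p = 0.00698) were called, the latter in all 15 alternatives in which the gene was tested. The ventricular level was 0.121%, 0.149% and 0.362% of the atrial one in controls and 0.00241%, 0.0176% and 0.0117% in CUG960 +dox mice. In the same libraries Myl7 was at 0.279%, 0.175% and 0.69% in controls and 0.0058%, 0.0105% and 2.22% in CUG960 +dox mice. The part of the share of atrial transcripts in the ventricle libraries in the Bmp10 result was not tested. Bmp5 rose in atria from 7.3, 8 and 7.69 CPM to 27.1, 24.8 and 26.5 CPM, and had 1.72, 1.81 and 2.30 CPM in ventricles of controls and 1.72, 0.732 and 1.21 CPM in those of CUG960 +dox mice (interaction -2.49 ± 0.25, adjusted p = 0.00202). Bmp7 went the other way, falling in atria (-0.66 ± 0.20) and rising in ventricles from 4.59, 4.12 and 4.65 CPM to 7.66, 6.62 and 6.76 CPM (0.66 ± 0.17), with an interaction of 1.34 ± 0.25 that was lost in 5 of the 6 fits without 1 mouse.

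Fgf16, a growth factor of ventricular myocytes, rose in atria from 0.471, 0.299 and 0.223 CPM to 1.54, 1.83 and 1.71 CPM. Its ventricular change missed the threshold (0.50 ± 0.17, adjusted p = 0.075), and its contrast shrank from 5.12 to 3.25. Angpt1, a ligand that stabilizes vessels, rose in atria from 78.1, 67.8 and 86.3 CPM to 116, 94.7 and 115 CPM and fell in ventricles from 7.28, 10.6 and 9.73 CPM to 5.45, 5.12 and 5.91 CPM (interaction -1.22 ± 0.17, adjusted p = 0.0113). Both genes were called in all 16 alternatives. Tgfb2, a transforming growth factor, moved the opposite way, from 17.8, 16.2 and 16 CPM to 12.8, 12.6 and 13.5 CPM in atria and from 11.1, 8.03 and 9.77 CPM to 12.6, 12.7 and 14.1 CPM in ventricles, so that a contrast of -0.80 in controls became 0.01. The other members called higher were Nrg2, a neuregulin (1.68 ± 0.23), Ctgf, a matricellular protein (1.54 ± 0.30), the apelin gene Apln (0.75 ± 0.15), the activin antagonist Fstl3 (0.74 ± 0.12) and Ace, the angiotensin-converting enzyme (0.65 ± 0.11). The calls of Apln and Ace were lost in 5 of the 6 fits without 1 mouse, that of Fstl3 in 2, and those of Tgfb2 and Nrg2 in 1.

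The hypertrophy and fetal program had 32 members tested, and 9 were called higher in ventricles and 0 lower (28.1% of the list, against 1.82% of all genes tested). Its median interaction was 0.459, and 24 of the 32 were positive, where all genes tested had a median of 0.002 and 9213 of 18327 were positive. Without 1 mouse, between 1 (without V120) and 4 (without V334) members were called higher. Without V123 and V334, whose ventricles held the most Myl7, Myl4 and Sln, 7 were, and without the mouse as a block 4 were. The 9 genes were Nppa, Ankrd1, Xirp2, Ctgf, Tnni1, Nmrk2, Enah, Synpo2l and Flnc. Within the chambers, 8 of the 32 members fell in atria and 3 rose, where 5.99% of all genes tested fell and 7.38% rose. In ventricles 1 fell and 8 rose, where 5.88% of all genes tested fell and 7.63% rose. Ankrd1, a stretch-responsive cofactor bound to titin, had 3100, 1989 and 2592 CPM in atria of controls and 2410, 3371 and 1551 CPM in those of CUG960 +dox mice. In ventricles it rose from 1330, 990 and 1105 CPM to 2276, 2643 and 2712 CPM (1.16 ± 0.23, adjusted p = 0.0063), and the interaction was 1.27 ± 0.25 (adjusted p = 0.0394). This call was lost in 4 of the 6 fits without 1 mouse, without the mouse as a block and in DESeq2. Xirp2, an actin-binding protein of the disc, fell in atria instead, from 466, 447 and 450 CPM to 198, 239 and 250 CPM (-0.99 ± 0.13), and did not pass the threshold in ventricles (-0.20 ± 0.13). Its interaction of 0.80 ± 0.14 therefore had the sign of that of Ankrd1 through a change in the other chamber. Enah, an actin regulator of the disc, did the same, with 194, 207 and 225 CPM in atria of controls and 129, 136 and 140 CPM in those of CUG960 +dox mice and between 162 and 197 CPM in all ventricles. The calls of Xirp2 and Enah were lost in 5 of the 6 fits without 1 mouse, and that of Ctgf in 4.

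M-CAT elements, which bind TEAD factors, are known in promoters of cardiac stress genes, and their 6 letters were therefore looked for in the 250 bases before the start of each gene. The letters searched were CATTCC and, for the other strand, GGAATG. Of the 9 called genes of the hypertrophy list, 8 had an entry, with 11 promoter windows among them. The letters were in 2 of the 11 (18.2%), those of Ankrd1 and Flnc, against 12.6% of all 32851 promoter windows of that length in RefSeq (GRCm38.p6) and 11.6% of the 319 windows of all called genes. Of the 7 windows of the called matrix genes 0 held them. The CArG box, which binds serum response factor, was in 0 of the 11 and 0 of the 7 windows and in 1.47% of all. Ankrd1 held them at 2 places, which are shown on the minus strand of chr19:36120041-36120062 and chr19:36119954-36119975 with the letters in capitals, the letters of the first ending 205 and of the second ending 118 bases before the start in RefSeq. In GENCODE the gene starts farther upstream (chromosome 19, 36111961 to 36120099), so that both windows lie within it. A match is a description of the sequence alone.
Ankrd1, farther window: ctgccaaaGGAATGaccctctc
Ankrd1, nearer window: ctaagtctGGAATGaaaattca

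Of 72 sarcomere and contraction genes, 9 were called higher in ventricles and 1 lower (13.9%, against 1.82% of all genes tested), and the median interaction was 0.068. Without 1 mouse the list held between 3 and 6 genes called higher, and without the mouse as a block it held 4. Its called members Tnni1, Synpo2l, Xirp2, Ankrd1 and Flnc are also called members of the hypertrophy list, and Xirp1 is one of the intercalated disc list. Myom2 and Myom3 encode M-band proteins that cross-link myosin. Myom2 had 796, 669 and 726 CPM in atria and 841, 829 and 806 CPM in ventricles of controls, and 852, 987 and 994 CPM in atria and 1726, 1978 and 1778 CPM in ventricles of CUG960 +dox mice. It rose in both chambers, by 0.37 ± 0.09 and 1.15 ± 0.09, and the interaction was 0.77 ± 0.11 (adjusted p = 0.012). Myom3 had between 4.09 and 4.74 CPM in all 6 atria, and rose in ventricles from 4.83, 5.93 and 5.59 CPM to 11, 11 and 11.6 CPM (interaction 1.03 ± 0.13, adjusted p = 0.00665). Tnni1, the slow skeletal troponin I of the fetal heart, rose in ventricles from 0.235, 0.332 and 0.152 CPM to 0.796, 0.587 and 0.847 CPM, far under its atrial level of between 12.8 and 20 CPM (interaction 1.56 ± 0.25). Pdlim3 and Synpo2l of the Z-disc had interactions of 0.66 ± 0.12 and 0.70 ± 0.13, and Xirp1 and Flnc, a filamin, of 1.15 ± 0.23 and 0.56 ± 0.11. Xirp1 and Flnc fell in atria and had ventricular changes that missed the threshold (0.20 ± 0.23 and -0.02 ± 0.12). The call of Flnc was lost in all 6 fits without 1 mouse, that of Synpo2l in 5, those of Xirp1 and Pdlim3 in 4 and those of Myom2 and Tnni1 in 2. Fhl2, a LIM protein of the sarcomere that is far higher in ventricles, was the member called lower. It rose in atria from 72.5, 67.5 and 73.2 CPM to 152, 142 and 159 CPM, and its ventricular level lay between 968 and 1265 CPM in both genotypes (interaction -0.94 ± 0.13, adjusted p = 0.0091).

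The extracellular matrix and TGF-beta list had 72 members tested, with 8 called higher in ventricles and 0 lower (11.1%, against 0.911% of all genes tested called higher). Its median interaction was 0.416 and 59 of the 72 were positive, where all genes tested had 0.002 and 9213 of 18327. In atria 21 of the 72 fell and 0 rose in CUG960 +dox mice, against 5.99% and 7.38% of all genes tested, and in ventricles 3 fell and 5 rose, against 5.88% and 7.63%. Postn, a matrix protein of activated fibroblasts, fell in atria from 72.4, 78.9 and 80.4 CPM to 50.5, 40.1 and 48.9 CPM and lay between 41.3 and 57.7 CPM in all ventricles (interaction 0.75 ± 0.13, adjusted p = 0.0267). Ltbp1, which binds latent TGF-beta, fell in atria (-0.34 ± 0.09) and rose in ventricles from 46.2, 43.1 and 48.1 CPM to 66.1, 55.5 and 53.8 CPM (0.35 ± 0.09). Col8a1, a short-chain collagen, and the microfibril gene Mfap5 fell in atria, by 0.61 and 0.67 on the log2 scale, and their ventricular changes missed the threshold. The matrix genes Cilp and Mfap4 did not pass the threshold in either chamber on its own, with interactions of 1.65 ± 0.26 and 1.17 ± 0.22. The call of Mfap5 was lost in all 6 fits without 1 mouse, those of Postn, Ltbp1, Col8a1 and Cilp in 4 and that of Mfap4 in 3. The list's count varied with the mice, from 0 without V120 to 13 without V334, and was 5 without the mouse as a block and 22 in DESeq2. Its called members Ctgf and Tgfb2 also count in the secreted factor list, and Ctgf in the hypertrophy list.

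Markers of fibroblasts moved with the matrix list, but the lists share Mfap5 and are not independent. All 12 fibroblast markers had positive interactions, with a median of 0.402. Of all 18327 genes tested, 9213 had positive and 9114 negative interactions, with a median of 0.002. The 2 markers called were Mfap5 and the fibroblast transcription factor Tcf21, 16.7% of the list against 1.82% of all genes tested. Their summed level was between 7427 and 8793 CPM in atria of controls and between 6513 and 7877 CPM in those of CUG960 +dox mice. In ventricles it was between 3165 and 3501 CPM and between 3076 and 3533 CPM. Gsn was the most abundant in each group, and 0 of the 12 markers were without counts. The part of cell composition in the matrix result was not tested, and in pieces of tissue fewer cells of a type cannot be told apart from less RNA per cell. Adipocyte markers were all 10 lower (median -0.848, 0 called), with Fabp4 the most abundant and a summed level of between 532 and 670 CPM in ventricles of controls and between 354 and 447 CPM in those of CUG960 +dox mice. Fabp4 made up most of these sums, with a mean of 579 CPM in controls and 381 CPM in CUG960 +dox mice. It is also in the endothelial list, so the sums do not single out adipocytes. Of the 11 smooth muscle and pericyte markers, Myh11 and Tagln were called lower (-0.71 and -1.84), 18.2% of the list against 1.82% of all genes tested. The list had a median of -0.127. The call of Tagln was lost in 3 of the 6 fits without 1 mouse. All 6 erythroid markers tested had positive interactions (median 0.516, 0 called), and their summed level in atria was between 323 and 514 CPM in 5 mice and 2767 CPM in V334. Of 9 skeletal muscle markers tested, 7 had positive interactions (median 0.731, 0 called), and 4 fell and 0 rose in atria, while 2 fell and 2 rose in ventricles. Their summed level was 1215, 1102 and 1124 CPM in atria of controls and 831, 756 and 794 CPM in those of CUG960 +dox mice, without overlap. In ventricles it was 1901, 2144 and 1832 CPM and 1550, 1934 and 1681 CPM, which overlapped. Ckm, the muscle creatine kinase, which the heart also expresses, was the most abundant in each group, and 0 of the 9 were without counts. Their part in the hypertrophy and sarcomere results was not tested. Leukocyte, mesothelial, lung and thymocyte markers held 0 calls. Endothelial markers held 1, Npr3 (8.33% of the list), and valve markers held 1, the secreted Wnt inhibitor Wif1 (16.7% of the list, interaction -2.33 ± 0.28).

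**Figure D5:**
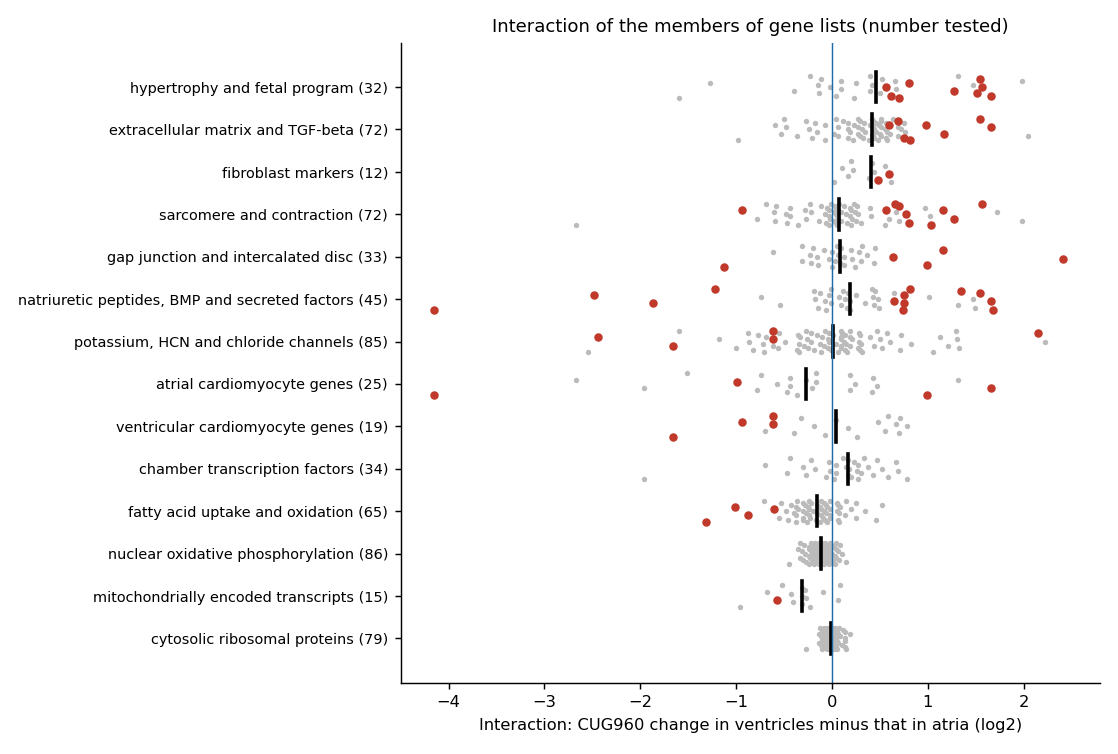
Interaction (log2) of each member of 14 gene lists, with called members in red, others in grey, the list's median as a black bar and the median of all genes tested as a blue line, and with the number tested in brackets. The called members of the hypertrophy and matrix lists all lie right of 0, and the medians of the fatty acid, oxidative phosphorylation and mitochondrially encoded lists lie left of it.

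Genes of fuel metabolism leaned to lower CUG960 changes in ventricles, by small amounts. Of 65 genes of fatty acid uptake and oxidation, 4 were called lower and 0 higher (6.15%, against 0.911% of all genes tested called lower). The median interaction was -0.152, 50 of the 65 were negative, where 9114 of all 18327 were, and the contrast shrank for 50, where it shrank for 47.5% of all genes tested. In ventricles 16 of them fell and 2 rose, against 5.88% and 7.63% of all genes tested. In atria 7 fell and 4 rose, against 5.99% and 7.38%. The 4 were Slc25a20, the carnitine-acylcarnitine carrier (-0.60 ± 0.11), Pdk4, a kinase that inhibits pyruvate dehydrogenase (-1.01 ± 0.13), the thioesterase Acot1 (-1.31 ± 0.26) and Bdh1, a ketone body enzyme (-0.87 ± 0.17). The fit without the mouse as a block called 0 of the 4. Without 1 mouse, the call of Pdk4 was kept in all 6 fits, that of Slc25a20 was lost in all 6, and those of Acot1 and Bdh1 were lost in 5. Pdk4 shows what the block does: its atrial level ran from 133 to 667 CPM among controls, but in each control mouse it was higher in ventricles, at 1000, 239 and 390 CPM where the atria had 667, 133 and 200 CPM. In CUG960 +dox mice the ventricles had 86.6, 192 and 101 CPM and the atria 115, 208 and 108 CPM, the ventricles being lower in each. Nuclear genes of oxidative phosphorylation, 86 in number, held 0 calls, and 73 of them were negative with a median of -0.113. Mitochondrially encoded transcripts had a median of -0.312 with 13 of 15 negative, and mt-Rnr2, a ribosomal RNA, was called (-0.58 ± 0.12, adjusted p = 0.0464), a call lost in all 6 fits without 1 mouse and in 9 of its 15 alternatives. With these lists the share of mitochondrial counts moved as given above. The 79 cytosolic ribosomal protein genes held 0 calls and a median of -0.009.

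Glycolysis and glycogen genes held 3 calls in each direction among 59 (10.2%, against 1.82% of all genes tested). Pfkfb1, which sets the level of an activator of glycolysis, was ventricular in controls, and its contrast shrank from 2.75 to 0.60. Pfkfb1 rose in atria from between 0.689 and 0.818 CPM to between 1.5 and 1.65 CPM and fell in ventricles from 4.82, 5.92 and 4.45 CPM to 2.22, 3.10 and 1.97 CPM (interaction -2.15 ± 0.22). It was called in all 16 alternatives. The enolases moved apart, with Eno2, the neuronal form, at 1.06 ± 0.15 and Eno1 at -0.59 ± 0.10. Eno1 shares reads with a near-identical copy, Eno1b, so its level is uncertain. The glucose transporter Slc2a1 (0.66 ± 0.12) fell in atria and rose in ventricles, and the kinase Pdk3 (0.87 ± 0.14) rose in ventricles. The calls of Eno1, Slc2a1 and Pdk3 were lost in 5 of the 6 fits without 1 mouse.

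Of 78 genes of NAD, coenzyme Q, one-carbon and amino acid metabolism, 4 were called higher and 5 lower (11.5%, against 1.82% of all genes tested). Abat, which breaks down GABA (GRCm38 chromosome 16, 8513429 to 8621568), was an atrial gene in controls, at 144, 136 and 129 CPM in atria and 47.7, 38.1 and 52.6 CPM in ventricles. In CUG960 +dox mice it had 218, 222 and 215 CPM in atria and 228, 213 and 183 CPM in ventricles, so that the contrast went from -1.57 to -0.08 (interaction 1.5 ± 0.14, adjusted p = 0.00202). Aass, the first enzyme of lysine breakdown, and Rimkla, which makes N-acetylaspartylglutamate, also rose in both chambers and more in ventricles. Aass went from 3.50, 3.94 and 2.85 CPM to 18.6, 22.4 and 16.4 CPM in ventricles (2.48 ± 0.14) and rose by 1.07 ± 0.13 in atria. Rimkla went from 0.822, 0.788 and 0.955 CPM to 15.5, 12.7 and 14 CPM in ventricles and rose by 2.71 ± 0.21 in atria. The call of its interaction was lost in 3 of the 6 fits without 1 mouse and in limma-voom, and those of Aass and Psat1 were lost in 1 of the 6. Coq8a, an atypical kinase needed to make coenzyme Q, fell in both chambers, from 294, 258 and 269 CPM to 78.9, 68.4 and 66.5 CPM in atria and from 564, 609 and 535 CPM to 88.3, 107 and 85.8 CPM in ventricles. The falls, -1.94 ± 0.10 and -2.61 ± 0.10, differed with an adjusted p of 0.0456, and this call was lost in all 6 fits without 1 mouse. Nmrk2, a nicotinamide riboside kinase, was also at the threshold (1.52 ± 0.32, adjusted p = 0.0499). The others called lower were Psat1 of serine synthesis (-1.02 ± 0.14), the mitochondrial folate enzyme Aldh1l2 (-0.69 ± 0.15), the transaminase Gpt2 (-0.67 ± 0.12) and the proline oxidase Prodh (-0.58 ± 0.10). The calls of Aldh1l2, Gpt2, Prodh and Nmrk2 were lost in 5 of the 6 fits without 1 mouse.

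Among genes of chamber identity, calls fell on the lists of atrial and ventricular cardiomyocyte genes. Of 34 chamber transcription factors and 19 sinoatrial node genes tested, 0 were called in either direction, with medians of 0.164 and 0.132. Among 25 atrial cardiomyocyte genes, Nppa and Gja5 were called higher and Bmp10 and Sbk2, a kinase-like atrial gene, lower, 16% of the list against 1.82% of all genes tested. The median of the list was -0.27, and the contrast grew for 18 of the 25. Sbk2 fell in ventricles from 8.6, 12.5 and 10.1 CPM to 3.81, 4.04 and 4.92 CPM (interaction -0.99 ± 0.16). The count of this list depended on V123: without that mouse 7 members were called lower, with Myl7 at -5.35 and Sln at -3.96, against -2.67 and -1.51 with all mice (adjusted p = 0.633 and 0.727). Of 19 ventricular cardiomyocyte genes, 4 were called lower and 0 higher, namely Fhl2, Kcnd2, Kcnip2 and Kcnv2, 21.1% of the list. Fhl2 also counts in the sarcomere list, and Kcnd2, Kcnip2 and Kcnv2 in the potassium channel list. Of 55 genes of autonomic and cyclic nucleotide signalling, 0 were called. Of 44 splicing regulators with Dmpk, 1 was called, 2.27% of the list against 1.82% of all genes tested. This was Rbfox1, a neuronal and muscle splicing factor (-0.60 ± 0.09, adjusted p = 0.0177). It fell in ventricles from 22.3, 23.5 and 22.4 CPM to 17.7, 15.7 and 17.0 CPM, and in atria lay between 34.5 and 42.1 CPM. The call of Rbfox1 was lost in 3 of the 6 fits without 1 mouse, and that of Sbk2 in 2. Of the 48 integrated stress response and chaperone genes 3 were called, 6.25% of the list against 1.82% of all genes tested. The transporter Slc7a5 was called higher (0.69 ± 0.14) and Psat1 and Herpud1, an ER quality control protein, lower (Herpud1 -0.53 ± 0.10). The calls of Slc7a5 and Herpud1 were lost in all 6 fits without 1 mouse. Among 37 cytosolic heat shock genes 1 was called, 2.7% of the list against 1.82% of all genes tested. This was Hspa1a, called higher (1.65 ± 0.25), a call lost without the mouse as a block (adjusted p = 0.526). It fell in atria, where controls had 8.77, 12.9 and 57.4 CPM and CUG960 +dox mice 2.97, 8.17 and 2.89 CPM, and its near-identical copy Hspa1b makes these levels uncertain.

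Outside the lists, the genes with the smallest p-values had differences between ventricles and atria that did not overlap between the genotypes. Whrn, a scaffold protein, rose in atria from 5.33, 5.47 and 4.96 CPM to 13.7, 14.6 and 13.3 CPM, and in ventricles had 46.3, 44.2 and 43.8 CPM in controls and 41.7, 40 and 31.0 CPM in CUG960 +dox mice (interaction -1.66 ± 0.12, adjusted p = 0.000629). Efnb3, an ephrin ligand, fell in atria from 37.3, 32.1 and 31.5 CPM to 20.3, 19.0 and 17.4 CPM and rose in ventricles from 74.6, 74.5 and 74.2 CPM to 117, 104 and 96.8 CPM (interaction 1.34 ± 0.10, adjusted p = 0.000629). Tppp3, which binds microtubules, fell in atria from 239, 199 and 196 CPM to 60.4, 91.7 and 73.0 CPM and missed the threshold in ventricles (interaction 1.32 ± 0.11). Rp1, a microtubule-associated protein best known from photoreceptors, fell in both chambers, by 1.10 on the log2 scale in atria and by 3.09 in ventricles, where it dropped from between 4.45 and 5.17 CPM to between 0.464 and 0.631 CPM. The growth factor gene Egf fell in ventricles from 7.07, 5.41 and 6 CPM to 1.04, 1.31 and 1.77 CPM and lay between 11.4 and 14.4 CPM in all atria (interaction -2.11 ± 0.19). An antisense gene overlaps Egf, and the counting's use of strand is not given in the sources used here. The same doubt holds for other named genes with an annotated gene on the other strand, such as Angpt1. Xirp1 overlaps Cx3cr1 on its own strand, so its level is uncertain for that reason. Sh3rf2, a ubiquitin ligase, rose in atria from between 2.04 and 2.41 CPM to between 6.47 and 7.41 CPM (interaction -1.35 ± 0.12), and Igfbpl1 rose in both chambers and more in ventricles (1.11 ± 0.09).

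Some large interactions belonged to genes at low levels. Cubn, an endocytic receptor, rose in ventricles from 0.380, 0.190 and 0.214 CPM to 4.05, 2.83 and 3.77 CPM, with between 0.391 and 0.833 CPM in all atria (interaction 3.90 ± 0.43, adjusted p = 0.00346). Adcy1, a calmodulin-stimulated adenylyl cyclase of the atrium, rose in ventricles from 1.08, 1.02 and 1.64 CPM to 7.27, 11 and 6.61 CPM, against between 118 and 215 CPM in atria (interaction 2.16 ± 0.28). Astn2, a neuronal adhesion protein, rose in ventricles from between 1.89 and 1.99 CPM to between 6.10 and 7.74 CPM, and its contrast changed sign (interaction 1.86 ± 0.19). Fam65b, a RhoA inhibitor, Fam20a, a pseudokinase of the secretory pathway, and Sfrp2, a secreted Wnt modulator, each fell in atria and rose in ventricles, with interactions of 1.97 ± 0.19, 1.40 ± 0.14 and 2.05 ± 0.21. Fam20a had 5.05, 5.41 and 4.97 CPM in atria and 5.36, 5.51 and 6.11 CPM in ventricles of controls, and 3.60, 3.11 and 3.39 CPM and 10.0, 9.61 and 9.57 CPM in CUG960 +dox mice. Stmnd1 fell in atria from 6.15, 4.14 and 3.21 CPM to 0.244, 0.289 and 0.353 CPM (interaction 3.03 ± 0.55). Its counts in ventricles were 15, 21 and 17 in controls and 3, 19 and 16 in CUG960 +dox mice, and its call was lost in 4 of the 6 fits without 1 mouse. Fam46b went from -1.38 to 0.56 in its contrast. The RNA 2310039L15Rik, annotated as a long intergenic RNA, rose in atria from 0.0655, 0.115 and 0.153 CPM to 2.05, 1.55 and 1.93 CPM and in ventricles from 1.28, 2.09 and 1.88 CPM to 4.22, 4.44 and 3.65 CPM (interaction -2.83 ± 0.28), and 4833412C05Rik, of the same class, rose in ventricles from between 0.491 and 0.560 CPM to between 1.67 and 3.56 CPM (1.96 ± 0.18). Gm15543, antisense to Casc1, and Nat8f3, a member of a family of close copies, were called lower (-2.17 ± 0.22 and -2.30 ± 0.24) and are uncertain for these reasons. The genes Asph, Pdlim7 and Necap2 changed in at least 1 chamber, but their interactions of 0.27 ± 0.10, 0.06 ± 0.14 and 0.15 ± 0.09 did not pass the threshold (adjusted p = 0.301, 0.911 and 0.552).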

How the data were processed

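Poly(A) RNA was sequenced from both chambers of 6 mice, 3 of each genotype. The authors aligned reads to the mouse genome (mm10, GRCm38 per the labels) and deposited the expected counts of each gene from RSEM 1.3.1 as whole numbers, unscaled and unfiltered, so that reads shared by near-identical genes are divided among them. Repeated symbols, 92 of them, were kept as separate entries.

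Counts were analysed with edgeR 4.0.16 in R 4.3.3: filterByExpr over the 4 groups, TMM scaling, and quasi-likelihood tests (glmQLFit, glmQLFTest) with Benjamini-Hochberg adjustment over 18327 genes at 0.05 and no fold limit. The design held 1 term per mouse and a ventricle term for each genotype, with 4 residual degrees of freedom, and the interaction is the difference of the ventricle terms. Changes within a chamber came from a fit of the 4 group means, since a mouse has 1 genotype. Standard errors are on the scale of the fits. Counting error matters near the floor of 3 counts and also for genes with few counts above it, such as Cubn in ventricles of controls (42, 20 and 24 counts). For genes with high counts it is small at these depths, and precision is set by having 3 mice of each genotype.

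The labels give the chambers of a mouse the same number, which pairs them. After subtraction of group means, Pearson r across genes in log2(CPM + 1) was 0.0454 to 0.32 between both chambers of an animal (6 pairs) and -0.386 to 0.155 between chambers of different animals of a genotype (12 pairs). The genotypes were bred in separate crosses, and no batch is given in the sources used here. With the block 334 genes were called. Without it 253 were, of which 214 were among the 334.

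The comparison, the 22 function lists and the 12 marker lists were chosen with earlier results of these data known. Named genes were those the paper names for expression, called list members, the 10 genes with the smallest p-value in each direction, the 6 with the largest interaction in each contrast class (mean of at least 1 CPM, mice not overlapping) and chamber check genes. Some genes that the rule chose are given by count alone, and some results are not reported here. Genes outside this rule were named after their values were seen, and these are Cdh19, Gsn, Fabp4, Tcf21, Myh11, Wif1, Ckm, Casc1, Eno1b, Hspa1b and those of the closing observations. Coordinates are from GENCODE M21 on GRCm38 and promoter windows from RefSeq (GRCm38.p6). The steps were tested on simulated data.

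Alternatives were the fit without the block, each mouse left out, RLE and upper quartile scaling, no filter, at least 10 counts in every library, DESeq2 1.42.0, limma-voom (limma 3.58.1), thinned counts, no mitochondrially encoded genes, an interaction of at least 1.5-fold and each chamber fitted on its own. Leaving out V123 and V334 together was chosen after seeing the data. Figures were drawn with matplotlib 3.10.9 in Python 3.11.15.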

Additional observations from a re-analysis of the deposited data

Results flagged for a closer look

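The CUG960 effect differed between the chambers for 167 genes in each direction by the test of the interaction. Among the genes named here, 13 had changes that passed the threshold in both chambers with opposite signs, a difference between the chambers that the interaction tests directly.

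Those that fell in atria and rose in ventricles were Sfrp2 (interaction 2.05), Fam65b (1.97), Fam20a (1.40), Bmp7 (1.34), Efnb3 (1.34), Eno2 (1.06), Tgfb2 (0.81), Ltbp1 (0.69), Slc2a1 (0.66) and Gja1 (0.63). Those that rose in atria and fell in ventricles were Pfkfb1 (-2.15), Angpt1 (-1.22) and Eno1 (-0.59). Of these calls, those of Bmp7, Slc2a1 and Eno1 were lost in 5 of the 6 fits without 1 mouse, that of Ltbp1 in 4, that of Gja1 in 3 and that of Tgfb2 in 1.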

How the results depend on the processing

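In no alternative did any of the called genes change direction. Of the 100 named genes, 89 were called, 33 of them in every alternative in which they were tested (15 for Bmp10 and 16 for the others, not counting the fit without both V123 and V334) and 37 in each fit without 1 mouse.

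Counts moved by over 1.5 times in most fits without 1 mouse, with no filter and in DESeq2. Without 1 mouse, the genes called ranged from 83 to 243, those higher in ventricles from 39 to 140, those lower from 44 to 103, those whose contrast shrank from 32 to 102, grew from 30 to 79 and changed sign from 20 to 65. With no filter on low counts 765 genes of 29861 were called, 425 higher and 340 lower, with 323, 270 and 172 in the classes. DESeq2 called 683, 352 higher and 331 lower, with 288, 248 and 147, and 97.9% of the genes called by edgeR were among them. Calls by RLE factors (350), upper quartile scaling (355), 10 counts in every library (383), limma-voom (310), the fold limit (287) and without V123 and V334 (328, of which 58.2% were among those called with all mice) stayed within 1.5 times.

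Without the replicate block 253 genes were called, 127 higher and 126 lower, against 167 in each direction with it, and the genes shared were 64.1% of those called with it and 84.6% of those called without. No call reversed without the block. Among the genes that the rule chose and the text names, those called with it and not without it were Ace, Acot1, Aldh1l2, Ankrd1, Apln, Bdh1, Cilp, Ctgf, Fam46b, Flnc, Gja5, Hspa1a, Kcnip2, Mfap4, Mfap5, mt-Rnr2, Nmrk2, Pdk4, Pdlim3, Postn, Ryr3, Scn4b, Slc25a20, Slc7a5, Tmem38b, Xirp1 and Xirp2. Genes named after their values were seen are not covered here. Among named genes that were not called, signs turned for Myl7 (0.764), Myl4 (0.849) and Sln (0.467) without the replicate block, for Hey2 without V119 (from -0.158 to 0.348 over the fits without 1 mouse), for Myl4 without V334, V119 or V120 (from -1.73 to 0.640) and for Pdlim7 without V334 or V120 (from -0.0455 to 0.181, and -0.0253 without V123 and V334). The causes were not tested.

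Genes at or under 3 counts in every library of a group have no usable fold: 3 of the called genes in ventricles of controls and 3 in atria of CUG960 +dox mice.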

Other observations

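Genes of DNA replication were in no list and were grouped after their values were seen. The 15 tested were genes of the MCM helicase and the GINS complex with Mcm10, Cdc45, Cdt1, Cdc6 and Pcna. Of the 15, 3 were called higher in ventricles and 0 lower, 13 had positive interactions and the median was 0.391. Of all 18327 genes tested, 0.911% were called higher, 9213 had positive interactions and the median was 0.002. Mcm2, a helicase subunit, had between 6.31 and 7.58 CPM in all atria and rose in ventricles from 5.82, 4.97 and 5.45 CPM to 15.0, 13.7 and 10.9 CPM (interaction 1.38 ± 0.16, adjusted p = 0.0047). Mcm5 rose in ventricles from 4.74, 4.18 and 4.85 CPM to 8.35, 7.37 and 6.24 CPM (0.79 ± 0.16, adjusted p = 0.041), and Mcm7 from 9.45, 8.92 and 8.80 CPM to 16.4, 16.4 and 14.3 CPM (0.64 ± 0.11, adjusted p = 0.022).

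Ciliary neurotrophic factor and its receptor subunit, also grouped afterwards, both fell in atria. Of 7 genes of the group tested, 2 were called higher and 1 lower, against 0.911% of all genes tested in each direction. Cntf went from 20.6, 15.2 and 17.8 CPM to 4.04, 6.42 and 4.67 CPM in atria and had between 0.357 and 0.616 CPM in ventricles (interaction 1.86 ± 0.19, adjusted p = 0.0022). Cntf overlaps Zfp91 on the same strand, so its level is uncertain. Cntfr went from 29.6, 43.8 and 41.7 CPM to 13.7, 17.3 and 16.3 CPM in atria and had between 3.03 and 5.16 CPM in ventricles (0.87 ± 0.15, adjusted p = 0.024). The related cytokine cardiotrophin, Ctf1, fell in ventricles (-0.55) and was called lower (-0.69 ± 0.13), while the ligands Lif (1.74 ± 0.59, adjusted p = 0.232) and Clcf1 (-0.17 ± 0.26) and the shared receptors Lifr (-0.14 ± 0.13) and Il6st (0.25 ± 0.15) were not called.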
